A study of Mus musculus with 7 samples.

Results

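Amino acid transporter genes were described in ovulated mouse oocytes that lacked the maternal effect gene Nlrp2 and in wild-type (WT) oocytes. The genes were chosen by symbol: all entries of the deposited gene table whose name starts with Slc1a, Slc3a, Slc6a, Slc7a, Slc36a, Slc38a or Slc43a, which came to 57 of 18951 genes. Of these, 55 encode carriers or carrier subunits. The other 2 entries, Slc7a6os and Slc36a1os, are named for a neighbouring transporter gene, encode no transporter and were kept apart. Slc6a8, Slc6a2, Slc6a3, Slc6a4 and some relatives carry creatine or monoamines and were kept because the symbol rule takes whole families. RNA came from 4 pools of Nlrp2-null and 3 pools of WT oocytes of C57BL/6 females aged 4 weeks, each pool with about 150 oocytes of 3 to 4 mice of 1 genotype. The oocytes were taken from the oviduct ampulla within their cumulus mass, and a 2 minute bath in 3 mg/ml hyaluronidase was used to remove the cumulus cells. The labels do not say that no mouse gave oocytes to more than 1 pool, so the p values measure the spread between these pools. The labels used here give no hormone treatment and no detail of the null allele.

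Amino acid carriers fall into families with distinct coupling. SLC6 carriers use sodium and chloride, SLC1, SLC36 and SLC38 carriers are driven by sodium or protons, and the SLC7 light chains reach the membrane bound to an SLC3 heavy chain and swap 1 amino acid for another. In mouse oocytes and cleavage embryos, glycine uptake through the SLC6A9 protein (GLYT1), which becomes active around ovulation, serves to control cell volume. Cumulus cells also pass amino acids such as alanine to the oocyte through gap junctions while they are attached.

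The recovered reads ran from 71073973 to 96330083 per pool, and 1 read was worth 0.823 to 1.08 normalized counts, the unit of all levels below. Nlrp2 itself stood at 107, 8.19, 1.96 and 63.8 in null pools 1 to 4, against 15527, 20130 and 16792 in WT pools 1 to 3, which fits the labels. The 20 oocyte markers had similar means in all pools (13.98 to 14.15 on the log2 scale in null pools, 14.05 to 14.09 in WT pools). Of 37 cumulus and granulosa markers none was at 0 in every pool. The mean log2 level of the 35 with enough counts to test was 8.23, 8.56, 9.32 and 9.81 in null pools 1 to 4, against 9.05, 7.91 and 8.23 in WT pools 1 to 3 (difference 0.58, two-sided exact permutation p = 0.286 over 35 splits, smallest possible 0.0286). Markers of oviduct epithelium summed to 650.3, 868.4, 819.2 and 3270 in null pools 1 to 4, against 565.7, 578.8 and 406.7 in WT pools, so that null 4 stood apart. Krt7, Krt8, Krt18, Krt19, Epcam, Cldn3 and Msln of this list were highest in null 4. Ovgp1 (49.2 in null 4, 106 in null 1) and Cldn4 (54.4 and 217) were not, and Pax8 and Foxj1 were listed at 0 there. The mean log2 level of 5 tested blood and immune markers differed by 0.28 (two-sided exact permutation p = 0.771). In such bulk pools, fewer cells of a type and less RNA per cell cannot be told apart.

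Which transporters the ovulated oocyte holds was read from levels per length, as normalized counts per kilobase (kb) of annotated exon. The levels are those of whole pools, which also held RNA of cumulus and granulosa markers. The part of cumulus RNA in the level of each gene was not tested. The highest genes of the 55 were Slc6a9, the glycine carrier; Slc7a2, a carrier of arginine and lysine (CAT2); Slc7a11, the cystine light chain xCT; Slc6a6, the taurine carrier; Slc3a2, the heavy chain 4F2hc, also called CD98; and Slc43a3, a facilitative carrier known for taking up purine bases. These 6 genes held 73.2% of the summed level per kb of all 55 genes in null pools (71.6% to 74.8% in single pools) and 73.1% in WT pools (72.1% to 74.0%). The 10 highest genes held 87.0% in each group. At least 1000 counts per kb were reached by 7 genes in each group, the 6 above and Slc7a5. A further 11 genes in each group lay between 100 and 1000, and 18 genes in null pools and 23 in WT pools lay under 10.

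Slc6a9 had the highest group means, with 3964 ± 283 counts per kb in null pools (SD, n = 4) and 4123 ± 144 in WT pools (SD, n = 3), where it ranked 814th of 18737 genes. The other high levels per kb were 3702 ± 226 in null and 3083 ± 279 in WT pools for Slc7a2, 2423 ± 425 and 2234 ± 236 for Slc7a11, and 2468 ± 145 and 2053 ± 96.2 for Slc6a6. Slc3a2 followed with 2052 ± 256 in null and 1950 ± 222 in WT pools, and Slc43a3 with 1817 ± 88.6 and 1768 ± 212. In WT pools Slc6a9 lay above Slc7a2, and Slc7a2 above Slc7a11, in every pool. In null pools Slc6a9 and Slc7a2 overlapped, and Slc7a2 was the higher in null 2 (4033 against 3822) and null 3 (3640 against 3633). These orders rest on the annotated exon length, 5141 bases for Slc6a9 and 9135 for Slc7a2. With the longest annotated transcript as length (3479 and 7910 bases), Slc6a9 lay above Slc7a2 in every null pool. With that length Slc7a2 and Slc7a11 overlapped in WT pools. Slc7a11, Slc6a6, Slc3a2 and Slc43a3 overlapped each with the next in the order. The next step down was clear, since Slc7a5, the large neutral light chain LAT1, held 1107 ± 298 in null and 1111 ± 63.1 in WT pools. The order in null pools shared 9 of its 10 highest genes with that in WT pools; Slc7a1 took the tenth place that Slc6a20a held in WT pools.

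**Figure D1:**
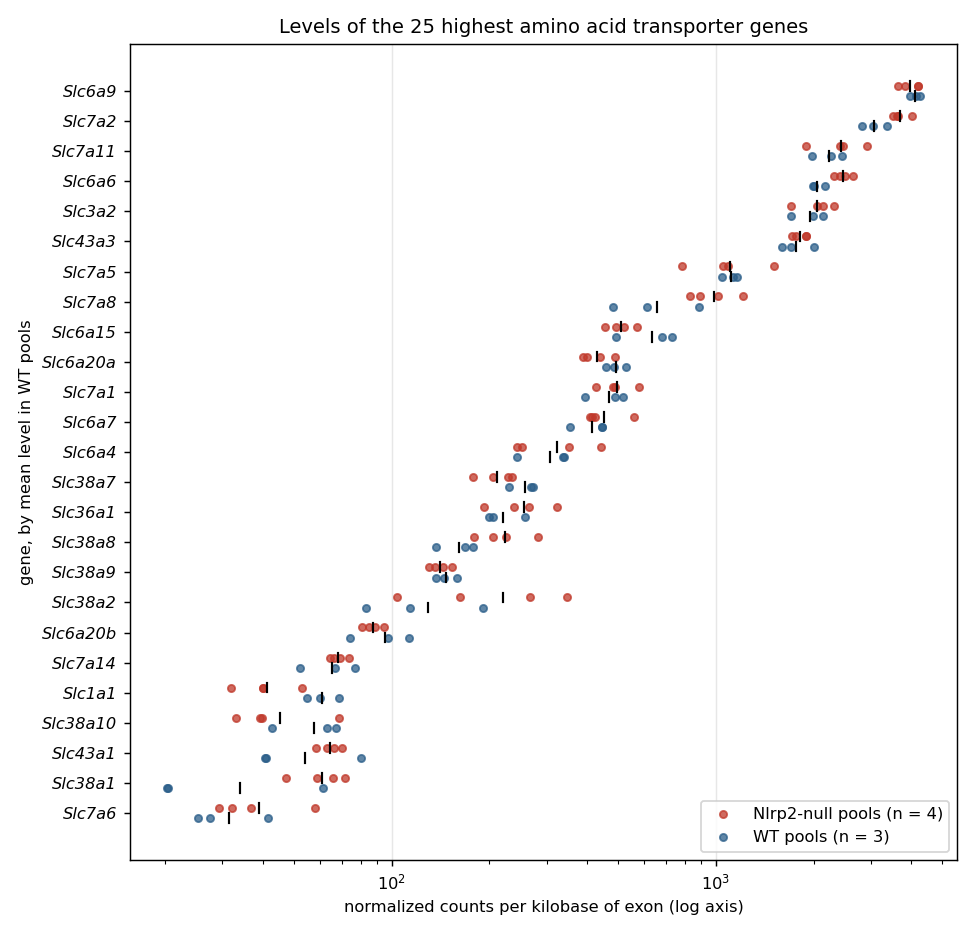
Level of the 25 highest amino acid transporter genes, in normalized counts per kilobase of exon on a log axis. Each point is 1 pool (red, 4 Nlrp2-null pools; blue, 3 WT pools) and the black bars are group means; Slc6a9 to Slc43a3 lie above 1000 in every pool of both groups.

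Levels per kb depend on the exons that are annotated, and 13 of the 57 genes share exon bases with another gene on the opposite strand. For Slc6a9 the gene Ccdc24 covers 27.8% of the exon bases, but it stood at 190 ± 92.5 counts in null and 118 ± 94.1 in WT pools, far below the 20377 ± 1457 and 21194 ± 739 counts of Slc6a9. For Slc1a1 the partner 4430402I18Rik covers 31.9% of the exon bases and was the higher of the pair (997 ± 260 in null and 775 ± 95.01 in WT pools), so the level of Slc1a1 is uncertain. The same holds for Slc3a1, which shares 26.5% of its exon bases with Prepl (4719 ± 735 in null and 5277 ± 686 in WT pools), and for Slc6a20b, which shares 21.1% with Sacm1l (828 ± 39.1 and 793 ± 106) and has Slc6a20a as a close relative.

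Nlrp2-null and WT pools were then compared for every gene of the table with limma on log2(normalized count + 1). None of the 43 transporter genes with a mean of at least 10 passed the test (Benjamini-Hochberg adjusted p under 0.05 over 15071 genes; lowest adjusted p among them 0.251), while 0.0664% of all tested genes did. edgeR on the recovered reads also called 0 of them, with 0.0464% of all genes called, and so did DESeq2, with 1.54% of the 12991 genes that it gave an adjusted p. At an unadjusted p under 0.05 edgeR had 6 of 43 (14%, against 10.2% of all genes) and DESeq2 8 (18.6%, against 11.5%). In limma 7 of 43 (16.3%) had an unadjusted p under 0.05, against 10.2% of all tested genes. Of the 7, 5 had higher values in null pools (5.28% of all genes) and 2 lower (4.93%). Groups did not overlap for 4 of 43 genes (9.30%), against 9.91% of all tested genes. Null pools lay above WT for 3 of them (4.74% of all genes) and below for 1 (5.16%). The median log2 fold change of the 43 was 0.08, against 0.01 over all genes, and 27 of them were positive (62.8%, against 50.7% of all tested genes). Without null 3 the count at an unadjusted p under 0.05 was 4 (9.30%, against 8.43% of all genes), and without null 3 and null 4 together it was 2 (4.65%, against 7.17%). The count of genes without overlap was higher with fewer pools, as it did over all genes. It was 7 (16.3%) without null 1, null 2 or WT 2, against 16.1%, 14.2% and 15.9% of all genes. It was 6 (13.95%) without null 3, against 14.2%, and 5 (11.6%) without null 4, against 15.3%. It was 10 (23.3%) without WT 1, against 21%, 9 (20.9%) without WT 3, against 16.8%, and 8 (18.6%) without null 3 and null 4, against 24.2%.

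**Figure D2:**
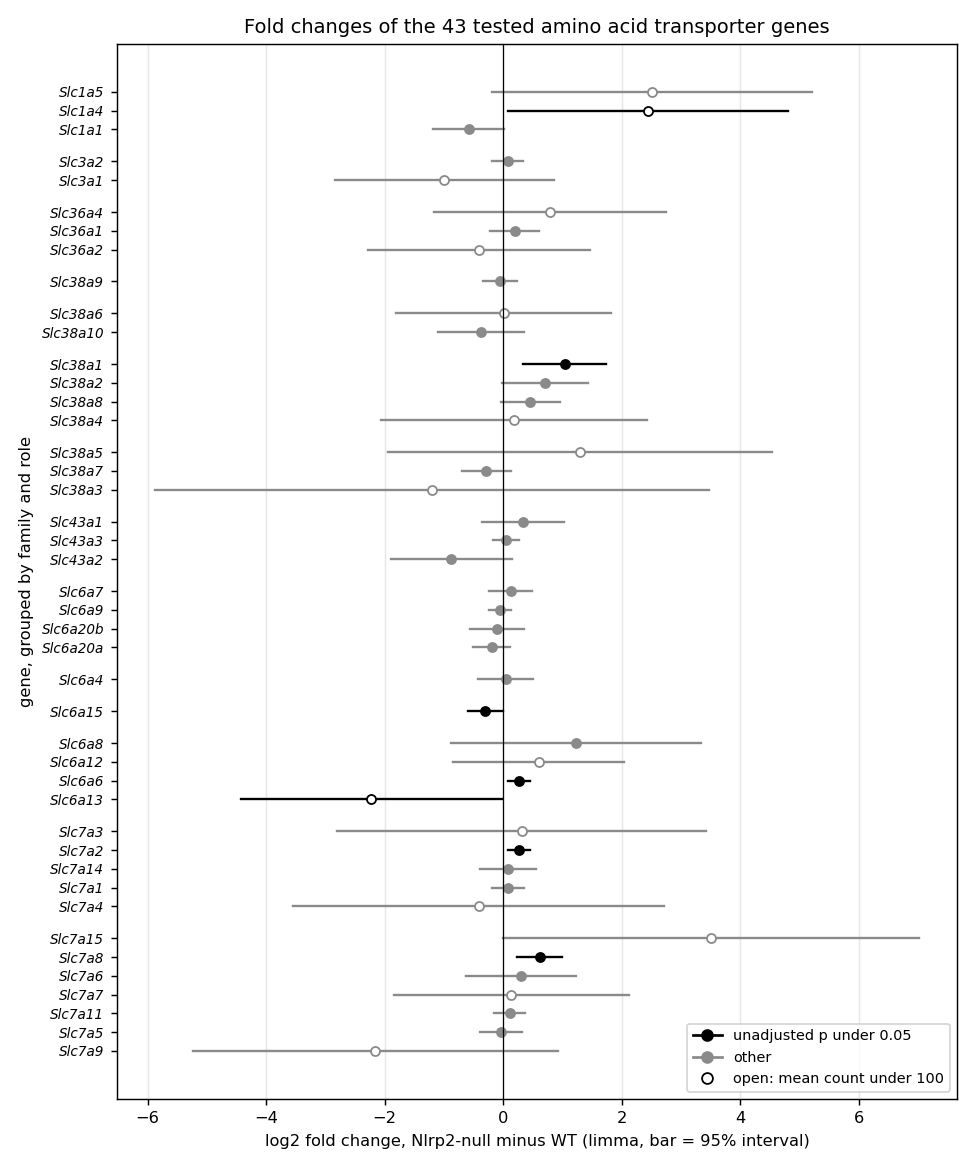
Log2 fold change (Nlrp2-null minus WT) of the 43 tested transporter genes by family and role, with limma's 95% interval. Black marks an unadjusted p under 0.05 and open points a mean normalized count under 100; all 7 black genes had adjusted p values of 0.251 or more.

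How far a difference could be seen depended on the level. For the 27 transporter genes with a mean of at least 100 the standard error of the log2 fold change ran from 0.0846 to 0.993, and for the 16 with a lower mean from 0.682 to 2.20. The intervals below give the range of folds that these pools leave possible, on the scale of log2(normalized count + 1).

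Among the SLC6 carriers of glycine and proline, 0 of 4 tested genes had an unadjusted p under 0.05. Slc6a9 (chr4:117834506-117875198, plus strand, GRCm38) held 21598, 19649, 18676 and 21585 counts in null pools 1 to 4, against 21293, 21879 and 20410 in WT pools 1 to 3. Null 2 and null 3 lay below every WT pool, while null 1 and null 4 lay among them, and the fold of 0.960 had a 95% interval of 0.847 to 1.09 (limma adjusted p = 0.857). Slc6a20a, a carrier of proline and betaine (SIT1), held 1635, 1990, 1591 and 1797 counts in null pools, against 1870, 1980 and 2155 in WT pools. Null pools 1, 3 and 4 lay below every WT value and null 2 lay between WT 2 and WT 3 (fold 0.874, interval 0.702 to 1.09, limma adjusted p = 0.692). Its neighbour Slc6a20b averaged 744 ± 50.2 in null and 810 ± 166 in WT pools. Slc6a7, a proline carrier best known from brain, averaged 1556 ± 250 in null and 1425 ± 179 in WT pools. Slc6a5 (GLYT2), the other glycine carrier, reached at most 6.50 counts in any pool.

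The taurine carrier Slc6a6 (chr6:91684053-91759066, plus strand) was 1 of the 4 genes whose groups did not overlap. It held 20380, 19535, 21172 and 22413 counts in null pools 1 to 4, against 18298, 16967 and 16822 in WT pools 1 to 3. Each null pool exceeded each WT pool, with null 4 highest and WT 3 lowest. The fold was 1.202 (interval 1.06 to 1.36, log2 fold change 0.26, SE 0.0846, unadjusted p = 0.00647, limma adjusted p = 0.297). The adjusted p was 0.317 in edgeR and 0.0825 in DESeq2, so no tool called it. Within the lower range of library numbers in the labels (null 1, null 2, WT 1, WT 2) the log2 difference was 0.18, and within the higher range (null 3, null 4, WT 3) it was 0.37. The carriers of betaine, creatine and GABA beside it were low. Slc6a13, which carries GABA and taurine, had 22.8, 63.5, 3.92 and 5.23 counts in null pools, against 88.5, 133 and 26.3 in WT pools. Null 2 lay above WT 3 (log2 fold change -2.23, SE 1.04, unadjusted p = 0.0479, limma adjusted p = 0.485). Slc6a12, the betaine carrier BGT1, averaged 79.1 ± 40.6 in null and 48.7 ± 17.9 in WT pools, and Slc6a8, the creatine carrier, 134 ± 97.0 and 99.7 ± 88.6.

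Slc6a15, a sodium-coupled carrier of branched-chain amino acids and proline, was the highest of the remaining SLC6 genes. It held 4425, 4018, 3820 and 3512 counts in null pools, against 3818, 5655 and 5276 in WT pools. WT 2 and WT 3 lay above all null pools, whereas WT 1 lay among them (fold 0.811, interval 0.658 to 0.999, unadjusted p = 0.0486, limma adjusted p = 0.488). Slc6a4, the serotonin carrier, was the 1 monoamine carrier that passed the filter, at 1461 ± 426 in null and 1391 ± 252 in WT pools (fold 1.03, interval 0.748 to 1.42).

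**Figure D3:**
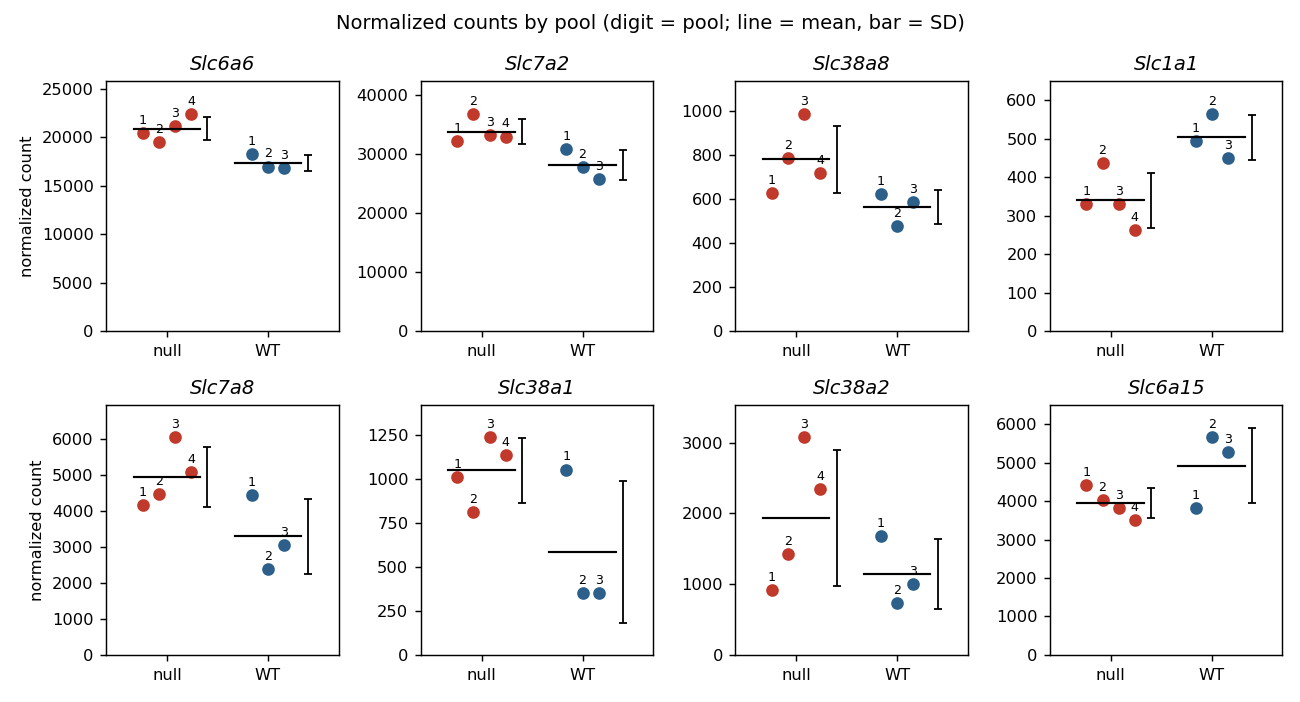
Normalized counts of 8 transporter genes in each pool (red, null pools 1 to 4; blue, WT pools 1 to 3; line, mean; bar, SD). Groups do not overlap for Slc6a6, Slc7a2, Slc38a8 and Slc1a1; for Slc7a8, Slc38a1 and Slc38a2 the WT 1 pool lies among the null pools.

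Of the SLC7 carriers of cationic amino acids, Slc7a2 and Slc7a1 (CAT1) were the abundant pair. Slc7a2 (chr8:40862396-40922308, plus strand) held 32203, 36839, 33249 and 32968 counts in null pools, against 30869, 27793 and 25818 in WT pools. Every null pool lay above every WT pool, with a gap between null 1 and WT 1 that was small beside the spread (fold 1.202, interval 1.06 to 1.36, log2 fold change 0.27, SE 0.0859, unadjusted p = 0.00697, limma adjusted p = 0.301, DESeq2 adjusted p = 0.114). The log2 difference was 0.23 within the lower and 0.36 within the higher range of library numbers. Slc7a1 held 5642, 4904, 6673 and 5550 counts in null pools, against 5962, 4544 and 5642 in WT pools. The groups overlapped, with null 3 above and WT 2 below all pools of the other group (fold 1.06, interval 0.875 to 1.28). Whether the 2 genes differ in their change was not tested. Slc7a14, an orphan of this branch, averaged 672 ± 39.9 in null and 642 ± 123 in WT pools. Slc7a3 and Slc7a4 averaged under 50 counts in both groups, and null 3 held the highest value of Slc7a4, 165 counts.

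The heavy chain Slc3a2 (chr19:8706882-8723369, minus strand), which takes the SLC7 light chains LAT1, LAT2 and xCT to the surface, held 7213, 7557, 6028 and 8174 counts in null pools, against 6024, 7561 and 7055 in WT pools. The groups overlapped, although null 4 lay above every WT pool and WT 1 just below every null pool (fold 1.05, interval 0.880 to 1.26, limma adjusted p = 0.878). The second heavy chain, Slc3a1 or rBAT, partner of the cystine carrier Slc7a9, was scarce at 39.0, 20.5, 6.87 and 36.6 counts in null pools, against 36.9, 37.1 and 61.7 in WT pools, and Slc7a9 averaged 4.41 ± 4.49 and 20.6 ± 17.6.

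Among the light chains, Slc7a11 (chr3:49892526-50443614, minus strand) held 40797, 34256, 33537 and 26337 counts in null pools, against 31562, 34144 and 27620 in WT pools. Null 1 was highest and null 4 lowest of all 7 pools (fold 1.08, interval 0.901 to 1.28, limma adjusted p = 0.814). Slc7a5 held 3886, 4044, 2910 and 5585 counts in null pools, against 4180, 4318 and 3861 in WT pools. Its null pools spread to both sides of the WT range, with null 3 lowest and null 4 highest (fold 0.971, interval 0.758 to 1.24). Slc7a8, the light chain LAT2 for neutral amino acids (chr14:54722209-54781946, minus strand), had the smallest p of all transporter genes in limma; in edgeR that of Slc6a6 and in DESeq2 that of Slc7a15 was the smallest. It held 4175, 4479, 6057 and 5083 counts in null pools, against 4440, 2404 and 3061 in WT pools. WT 1 lay above null 1, and the other WT pools lay below every null pool (fold 1.53, interval 1.18 to 1.99, log2 fold change 0.62, SE 0.180, unadjusted p = 0.00348, limma adjusted p = 0.251, DESeq2 adjusted p = 0.0756). Slc7a15, a light chain, was low at 0, 56.3, 141 and 83.7 counts in null pools, against 7.37, 0.950 and 0 in WT pools. Null 1 was listed at 0 while the other null pools lay above all WT pools (limma log2 fold change 3.51, SE 1.66, adjusted p = 0.490). The log2 fold change was 5.12 without null 1, 2.74 without null 3, 1.58 without null 3 and null 4 and 4.69 in DESeq2 (adjusted p = 0.0661). Slc7a6 (y+LAT2) averaged 178 ± 59.4 in null and 143 ± 40.5 in WT pools, and Slc7a7 (y+LAT1) 40.2 ± 22.6 and 37.95 ± 33.3.

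Slc7a11 is a known target of ATF4, the transcription factor of the amino acid starvation response, which binds composite elements with C/EBP partners. RefSeq promoters on GRCm38.p6, from 250 bases before to 50 bases after the annotated start, were found for 41 of the 57 symbols and searched on both strands for TGATGNAA. This motif was present in 4 of their 61 promoters, of Slc7a11, Slc1a4 and Slc7a7, and in 3.97% of 32851 mouse promoters. The Slc7a7 promoters with it overlap and share 1 site. The antioxidant response core TGACNNNGC was in 11 of the 61 (12.4% of all promoters) and the E-box CACGTG in 6 (7.15%). The promoter of Slc7a11, the most abundant of these transcripts, and that of Slc1a4, the 1 of them with an unadjusted p under 0.05, are shown 5′ to 3′ with matches in capitals. Slc7a11 lies at chr3:50443564-50443863 and Slc1a4 at chr11:20332664-20332963, both on the minus strand.
Slc7a11: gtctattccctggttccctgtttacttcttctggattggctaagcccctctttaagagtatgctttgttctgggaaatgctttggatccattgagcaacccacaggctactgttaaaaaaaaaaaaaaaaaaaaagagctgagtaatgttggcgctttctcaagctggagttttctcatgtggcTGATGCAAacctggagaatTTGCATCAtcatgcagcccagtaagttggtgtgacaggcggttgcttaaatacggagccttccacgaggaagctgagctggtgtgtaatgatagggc
Slc1a4: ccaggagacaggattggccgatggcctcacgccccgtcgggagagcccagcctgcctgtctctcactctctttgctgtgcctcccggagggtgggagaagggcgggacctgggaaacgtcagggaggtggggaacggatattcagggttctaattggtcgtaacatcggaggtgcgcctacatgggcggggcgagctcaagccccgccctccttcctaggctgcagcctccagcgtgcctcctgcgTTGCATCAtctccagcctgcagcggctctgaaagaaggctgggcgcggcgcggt
Slc7a11 has 2 matches, 1 on each strand, that begin 66 and 47 bases before the start. Slc1a4 has 1 match on the reverse strand that begins 4 bases before the start and runs across it. A match of letters is a description and shows no binding.

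Within the SLC1 family, Slc1a1 (EAAC1), which carries glutamate, aspartate and cysteine, was the most abundant. It held 331, 437, 330 and 264 counts in null pools, against 494, 566 and 451 in WT pools. All null pools lay below all WT pools, with null 2 close to WT 3 (fold 0.668, interval 0.441 to 1.01, unadjusted p = 0.0570, limma adjusted p = 0.506). The neutral carriers Slc1a4 (ASCT1) and Slc1a5 (ASCT2) were scarce. Slc1a4 had 55.3, 27.6, 136 and 16.7 counts in null pools, against 15.8, 17.1 and 0.823 in WT pools, so that null 4 lay within the WT range (log2 fold change 2.44, SE 1.11, unadjusted p = 0.0435, limma adjusted p = 0.477). The log2 fold change was 1.35 without WT 3, which held 1 read, and 3.01 without WT 2. Slc1a5 had 9.75, 24.6, 97.1 and 78.5 counts in null pools, against 8.43, 0 and 31.3 in WT pools.

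In the SLC38 family the system A genes, which import small neutral amino acids with sodium, had positive fold changes in 4 of 4 tested cases (50.7% of all tested genes were positive), 1 with an unadjusted p under 0.05. The sign of Slc38a4 did not hold, with a log2 fold change of 0.18 over all pools, -0.60 without null 3 and null 4 and -0.59 with the cumulus marker mean in the model. Slc38a1 (chr15:96571418-96642913, minus strand) held 1012, 811, 1236 and 1137 counts in null pools, against 1053, 352 and 349 in WT pools. WT 2 and WT 3 lay below every null pool, but WT 1 lay among them (fold 2.05, interval 1.26 to 3.32, log2 fold change 1.03, SE 0.328, unadjusted p = 0.00622, limma adjusted p = 0.293). Without WT 1 limma called it (log2 fold change 1.56, adjusted p = 0.0352), and over all alternatives its adjusted p ran up to 0.763. Slc38a2 (SNAT2), a gene known to be induced by amino acid shortage, held 914, 1431, 3076 and 2351 counts in null pools, against 1688, 736 and 1005 in WT pools. Null 3 and null 4 lay above all WT pools and null 1 lay below WT 1 and WT 3 (fold 1.63, interval 0.986 to 2.69, limma adjusted p = 0.504). Its log2 difference was 0.04 within the lower and 1.42 within the higher range of library numbers. Slc38a8 held 625, 785, 986 and 719 counts in null pools, against 623, 477 and 587 in WT pools. Its groups did not overlap, though null 1 and WT 1 nearly met (fold 1.37, interval 0.976 to 1.94, unadjusted p = 0.0667, limma adjusted p = 0.532). Slc38a4 averaged 49.7 ± 44.2 in null and 25.3 ± 2.32 in WT pools.

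The system N gene Slc38a7, a lysosomal glutamine carrier, had the highest level per kb of the SLC38 family in WT pools. It held 947, 848, 970 and 738 counts in null pools, against 951, 1126 and 1112 in WT pools. WT 2 and WT 3 lay above every null pool, and WT 1 lay just below null 3 (fold 0.821, interval 0.619 to 1.09, limma adjusted p = 0.654). Slc38a3, known in mouse for alanine and histidine uptake by cumulus cells, was listed at 0 in null 1, null 2, null 4, WT 2 and WT 3, with 10.8 counts in null 3 and 76.9 in WT 1. Slc38a5 had 13.01, 0, 71.6 and 184 counts in null pools, against 14.7, 6.65 and 4.12 in WT pools, with its highest values in null 4 and null 3. Slc38a9, the lysosomal arginine sensor that acts on mTORC1, averaged 2350 ± 169 in null and 2449 ± 186 in WT pools (fold 0.960, interval 0.788 to 1.17). Slc38a10 averaged 290 ± 102 in null and 370 ± 83.4 in WT pools, and Slc38a6 27.1 ± 12.8 and 25.5 ± 5.25.

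Slc36a1 (PAT1), which moves small amino acids out of lysosomes with protons, was the main SLC36 gene at 1492, 1340, 1084 and 1823 counts in null pools, against 1120, 1451 and 1153 in WT pools. The groups overlapped (fold 1.14, interval 0.858 to 1.52, limma adjusted p = 0.784). Slc36a2 averaged 67.8 ± 61.7 in null and 68.8 ± 43.04 in WT pools, and Slc36a4 42.97 ± 22.4 and 32.4 ± 34.3. In the SLC43 family Slc43a3 held 7682, 8459, 8433 and 7864 counts in null pools, against 7120, 7606 and 8945 in WT pools, with all null pools inside the WT range (fold 1.03, interval 0.884 to 1.203). The neutral amino acid carriers of this family were lower. Slc43a1 (LAT3) averaged 368 ± 28.1 in null and 308 ± 130 in WT pools, and Slc43a2 (LAT4) 162 ± 71.2 and 287 ± 118 (log2 fold change -0.88, SE 0.480, limma adjusted p = 0.571).

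A further 12 transporter genes had a mean under 10 and were not tested. They included Slc1a2, Slc1a3, Slc36a3, Slc38a11, Slc6a2, Slc6a3, Slc6a5, Slc6a11, Slc6a14, Slc6a18 and Slc6a19, and no pool held more than 31.4 counts of any of those named (Slc38a11 in null 4). Of all 55 genes, 37 had a value above 0 in every pool. The gene Slc7a6os beside Slc7a6 averaged 6606 ± 260 in null and 6435 ± 339 in WT pools, and the non-coding Slc36a1os 22.7 ± 10.7 and 21.4 ± 9.25.

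Slc38a2 was lowest in WT 2 and highest in null 3, and the mean of the cumulus and granulosa markers was lowest in WT 2 and highest in null 4, with WT 1 above null 1 and null 2 in both. When the mean level of these markers entered the model, 26 of the 43 log2 fold changes came nearer to 0 (60.5%, against 51.2% of all tested genes) and 17 moved away from it. Among those that came nearer were Slc38a2 (0.14 with the markers in the model, 0.70 without), Slc38a1 (0.67 and 1.03), Slc7a8 (0.38 and 0.62), Slc7a15 (1.73 and 3.51), Slc6a13 (-1.45 and -2.23), Slc6a15 (-0.13 and -0.30), Slc38a8 (0.34 and 0.46) and Slc1a1 (-0.45 and -0.58). Slc6a6 (0.20 and 0.26) and Slc7a2 (0.25 and 0.27) also came nearer to 0. Slc43a2 (-1.37 and -0.88, unadjusted p = 0.00739 with the markers) and Slc7a11 (0.24 and 0.11, unadjusted p = 0.0291) moved away from 0. limma called none of the 43 in this model. The 37 markers summed to between 49587 and 82549 counts in null pools and between 39629 and 71444 in WT pools. Of the 35 tested, 29 had positive fold changes, as did 50.7% of all tested genes. By the mean over all pools the most abundant of them were Hsd3b1 (14055 in null and 11663 in WT pools on average), Nr5a2 (6831 and 6377) and Hsd17b7 (6540 and 6516). Vcan (7082 and 5376) was the second highest in null pools. Cyp19a1 (4183 and 4443), Gata4 (2413 and 2956) and Ctgf (84.8 and 165) were among the markers with lower means in null pools. The part of cumulus RNA in these values was not tested.

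**Figure D4:**
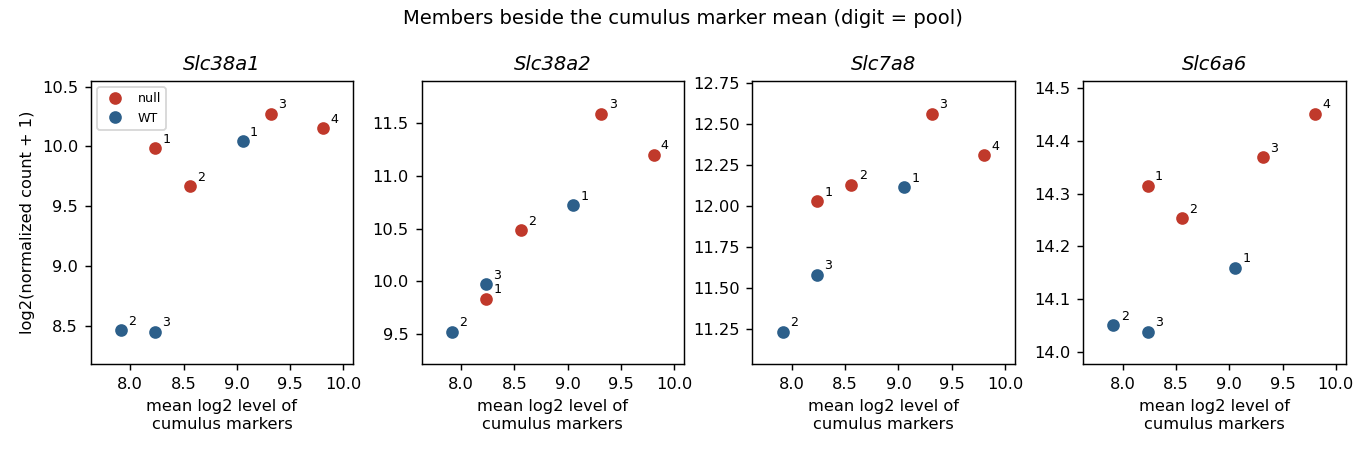
Log2(normalized count + 1) of 4 transporter genes against the mean log2 level of the tested cumulus and granulosa markers, 1 point per pool (red, null; blue, WT; digit, pool). Slc38a2 values lie higher at higher marker means, and all null pools of Slc6a6 lie above all WT pools. The part of cumulus RNA in either gene was not tested.

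Other genes of amino acid handling were counted in 5 lists. Of 24 tested amino acid and peptide carriers outside these families, 0 passed and 2 had an unadjusted p under 0.05 (8.33%, below the 10.2% of all tested genes), 1 in each direction. Slc15a2, a carrier of di- and tripeptides, held 1354, 1109, 1085 and 1519 counts in null pools, against 899, 858 and 645 in WT pools, without overlap (log2 fold change 0.66, SE 0.202, limma adjusted p = 0.289). Its relative Slc15a1 averaged 29.3 ± 32.0 in null and 99.1 ± 55.4 in WT pools. Slc25a15, the mitochondrial ornithine carrier, averaged 12082 ± 596 and 10987 ± 855 and was not among the 2 (limma unadjusted p = 0.155). Of 41 genes of lysosomal amino acid sensing and mTORC1, 0 passed and 3 had an unadjusted p under 0.05 (7.32%, below the 10.2% of all tested genes), 2 with higher and 1 with lower values in null pools. The folliculin partner Fnip2 averaged 1423 ± 275 in null and 850 ± 254 in WT pools, the GTPase Rragd 640 ± 367 and 291 ± 107, and Itfg2, of the KICSTOR complex, 227 ± 101 and 376 ± 38.4.

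The amino acid starvation list had 6 of 27 tested genes at an unadjusted p under 0.05, 4 with higher and 2 with lower values in null pools (22.2%, against 10.2% of all tested genes), with a median log2 fold change of 0.09. None passed in limma or edgeR, and DESeq2 called 3, where it called 1.54% of all genes. Ddit4, an inhibitor of mTORC1 that responds to stress, held 5213, 5237, 9674 and 6791 counts in null pools, against 3817, 3318 and 3786 in WT pools, without overlap (log2 fold change 0.84, SE 0.175, limma adjusted p = 0.0978, DESeq2 adjusted p = 0.000433). Cth, cystathionine gamma-lyase, which makes cysteine from cystathionine, held 1690, 1806, 1486 and 1142 counts in null pools, against 763, 931 and 909 in WT pools (limma log2 fold change 0.80, SE 0.194, adjusted p = 0.162, DESeq2 adjusted p = 0.01001). Eif2s1, the eIF2 alpha subunit that GCN2 phosphorylates, averaged 9174 ± 788 in null and 12254 ± 438 in WT pools (limma log2 fold change -0.42, SE 0.0969, adjusted p = 0.135, DESeq2 adjusted p = 0.00445), with every null pool below every WT pool. Of 14 genes of volume control and gap junctions, 0 passed and 2 had an unadjusted p under 0.05 (14.3%, against 10.2%). The gap junction gene Gja1, which is also 1 of the cumulus and granulosa markers, averaged 1876 ± 653 in null and 1095 ± 380 in WT pools, with its highest values in null 3 and null 4 and its lowest in WT 2. The part of cumulus RNA in this was not tested. The volume-sensing kinase gene Wnk3, at 1401 ± 309 in null and 1966 ± 242 in WT pools, was the other of the 2. The chloride transporter gene Clcn3, at 2922 ± 263 and 2426 ± 393, was not among them (limma unadjusted p = 0.0722). Of 13 partners and regulators of the transporters, 0 passed and 1 had an unadjusted p under 0.05 (7.69%, against 10.2%), Tmem27 (collectrin) at 149 ± 80.8 in null and 59.2 ± 16.8 in WT pools. The kinase genes Sgk3 and Sgk1, which act on many carriers, averaged 113 ± 85.4 and 3107 ± 1363 in null pools, against 38.7 ± 24.6 and 2178 ± 1136 in WT pools.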

How the data were processed

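The authors deposited a gene table of normalized counts, a signal per gene symbol and pool that was normalized with DESeq2, per the file name. Whole reads were recovered from it for 100% of the values within a tolerance of 0.01. GRCm38 and mm10 are the builds in the submitters' processing notes, which list DESeq2 1.22.2, DESeq, featureCounts 1.5.0-p1, HTSeq, HOMER, STAR 2.5.0a and TopHat2 2.0.9. Which of these tools aligned and counted the reads of the table, and how strand was treated, are points not given in the sources used here. The libraries were amplified from little RNA with oligo d(T) and random primers, per the labels' protocols, so reads are not independent molecules. A second deposited table of assembled transcripts without gene names was not used here.

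The members and lists were chosen with earlier results of these data known. limma 3.58.1 (R 4.3.3) with a variance trend was fitted to log2(normalized count + 1) of the 15071 genes with a mean of at least 10, Nlrp2-null minus WT, without covariates, and p values were adjusted over all of them. edgeR 4.0.16 and DESeq2 1.42.0 on the recovered reads were alternatives, tested like limma on simulated data. Pools of 1 group differed by more than sampling noise (lowest chi-square over its degrees of freedom 38.2), and each counted as a replicate. Exon lengths, positions and overlaps came from GENCODE M21, which matched 18737 symbols. Pool values are given for the 10 smallest p values, the 10 highest levels per kb in WT pools, the highest gene of each family and both SLC3 genes; Slc38a5, Slc38a3, Slc1a5, Slc7a1 and Slc38a8 were added after their values were seen. Of each list the 3 genes with the smallest p are named. An item withheld for evaluation is not reported here.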

Additional observations from a re-analysis of the deposited data

Results flagged for a closer look

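The mean log2 level of the oviduct epithelium markers was far higher in 1 null pool than in the others. It stood at 4.21, 4.08, 4.51 and 7.13 in null pools 1 to 4, against 4.01, 3.99 and 3.53 in WT pools 1 to 3, and the gap between null 4 and the next null pool was 0.858 of the range of the null pools. Of 23 values examined this way (19 transporter genes and 4 marker means), this was the 1 past Dixon's 95% critical value for 4 pools, and chance passes about 1 in 20 groups. None of the 19 named transporter genes was past it, and the other transporter genes were not examined this way. Within the oviduct list, Ovgp1, Cldn4 and Pax8 were not at their highest in null 4.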

How the results depend on the processing

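No transporter gene was called in any alternative except Slc38a1 without WT 1, so that the count of called genes ran from 0 to 1 when single pools were left out. The count at an unadjusted p under 0.05 was 7; it was 3 with no variance trend (6.98%, against 8.31% of all genes), 2 without null 3 and null 4 (4.65%, against 7.17%), and ran from 4 to 10 when single pools were left out (9.30% to 23.3%, against 6.50% to 11.7% of all genes). The count without overlap was 4 (9.30%, against 9.91% of all genes). It ran from 5 to 10 without single pools (11.6% to 23.3%, against 14.2% to 21% of all genes). Without null 3 and null 4 it was 8 (18.6%, against 24.2%). The median log2 fold change lay within 0.093, its spread between pools, of the value reported in every alternative (0.04 to 0.15 without single pools). Over all genes limma called 10, against 6 with equal medians, 0 with no variance trend, 68 with pool quality weights, 17 when the mean cumulus marker level entered the model, 0 without null 3 and null 4, 200 in DESeq2, and 2 to 16 when single pools were left out (16 without null 1, 2 without null 3, 4 without null 4, 4 without WT 2 and 5 without WT 3). With the replicate number as a block (pools 1 to 3 of each group) 1 gene and 0 transporter genes were called. In that fit 6 transporter genes had an unadjusted p under 0.05 (14%, against 8.01% of all genes). Deviations of same-numbered pools from their group means correlated at -0.163, 0.0192 and -0.0121. Those of differently numbered pools ran from -0.101 to 0.174. These correlations cannot settle whether same-numbered pools were paired, since the deviations within a group sum to 0. The block was not run for the count without overlap, which comes from no fit. The 19 named transporter genes included the 10 with the smallest p in these same pools, which the alternatives refit. Of their 414 alternative values, 410 kept their sign. The exceptions were Slc3a2 (-0.0208 without WT 1; up to 0.157 without null 3), Slc43a3 (-0.0144 with equal medians, -0.0258 without WT 1; up to 0.139 without WT 3) and Slc7a5 (0.111 without null 3; down to -0.203 without null 4), and the cause was not tested. Outside these 19, Slc38a5 changed from 1.29 to -1.19 and Slc38a4 from 0.18 to -0.60 without null 3 and null 4. The set of the 10 highest genes per kb kept 9 to 10 members without single pools. With the longest annotated transcript as length it kept 9 members in WT and 10 in null pools. The order among the highest genes changed with that length. For genes with a mean under 100, depth and the spread between pools leave changes of several fold undetectable.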
